A study of Mus musculus with 4 samples.

Results

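In snRNA-seq of mouse cortex and hippocampus, 92 excitatory neuron nuclei were selected by a small set of genes that few other neurons hold. A nucleus was selected when it had at least 2 UMIs (unique molecular identifiers, counted transcripts) of Slc17a7, the vesicular glutamate transporter, and at most 1 UMI of Gad1 and Gad2 together, the enzymes that make GABA. It also had at least 1 UMI of the long noncoding RNA 9330185C12Rik, no UMI of Iyd, and a UMI of at least 2 of the 6 genes Dcn, Cd44, Angpt1, Fermt1, Gm6602 and Cfap52. They were 0.607% of 15168 excitatory nuclei and 0.255% of 36094 nuclei with more than 600 genes and under 5% mitochondrial UMIs. The 4 libraries each came from 1 mouse of 5 weeks. Of these, 2 were labelled Sel1L flox/flox, mice with a conditional Sel1L allele, and 2 were labelled Sel1L Syn-Cre, in which the floxed allele meets a Cre driven by the Synapsin I promoter. The label gives the genotype of the mouse and not whether Cre had acted in a given nucleus. The flox/flox libraries, in order of replicate, gave 16 and 38 selected nuclei with 321132 and 675407 UMIs. The Syn-Cre libraries gave 26 and 12 with 616086 and 181205 UMIs. No barcode was shared between libraries among the selected nuclei, and 9 to 32 were shared between pairs of libraries among all nuclei kept.

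Excitatory neurons of the cortex and hippocampus release glutamate and differ by layer and region in transcription factors, adhesion molecules and receptors, so that a small region can be known by a handful of genes. Cd44 is a cell surface receptor for hyaluronan, the sugar polymer of the extracellular matrix. Angpt1 is a secreted ligand of the Tek receptor of blood vessels, Fermt1 binds and activates integrins, and Dcn (decorin) is a small matrix proteoglycan best known from fibroblasts. SEL1L, with the ubiquitin ligase HRD1, removes misfolded proteins from the endoplasmic reticulum (ER) by ER-associated degradation (ERAD). When misfolded proteins build up, the unfolded protein response (UPR) raises ER chaperones.

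Dcn went against a description of these nuclei as Dcn expressing. It was found in 1 of 92 selected nuclei, with 1 UMI, or 1.09%, against 3.11% of the other excitatory nuclei. The median depth was 17462 UMIs in the selected and 12308.5 UMIs in the other excitatory nuclei. Among 43 clusters of excitatory nuclei, the cluster that held most of the selected nuclei was 30th in Dcn CPM, the UMIs of a gene scaled to the summed UMIs of the nuclei. The highest Dcn level, 60.0 CPM, lay in a cluster that held none of the selected nuclei. In nuclei with at least 5 UMIs of vascular fibroblast genes and none of Slc17a7, Dcn was found in 53.2% at a median depth of 3106.5 UMIs. The 7 vascular fibroblast genes examined, Col1a1, Col1a2, Col3a1, Lum, Slc6a13, Igf2 and Fbln1, were all at 0 UMIs in the selected nuclei.

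The other genes of the rule were seen in most selected nuclei, and since they chose the nuclei their values are given as a description. 9330185C12Rik (GRCm38, chr1:113891385-113964134, minus strand, annotated as a lincRNA) had a median of 10 UMIs and a range of 1 to 51 in the selected nuclei. It was found in 0.929% of the other excitatory nuclei. Angpt1 was found in 85.9%, Fermt1 in 77.2%, Cd44 in 72.8%, Gm6602 in 67.4% and Cfap52, a protein of motile cilia, in 60.9% of the selected nuclei. In the other excitatory nuclei these shares were 10.5%, 1.61%, 1.51%, 0.723% and 2.17%. In oligodendrocyte nuclei, defined by at least 5 UMIs of oligodendrocyte genes and none of Slc17a7 and with a median of 3103 UMIs, the shares of Cd44 and Fermt1 were 0.313% and 0.0781%. Cd44 was found in 13 of 16 and 28 of 38 selected nuclei of the flox/flox libraries, and in 20 of 26 and 6 of 12 of the Syn-Cre libraries. Cd44 and Fermt1 were found together in 54 of the 92 nuclei, and Angpt1 and Fermt1 in 60.

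Of the 92 nuclei, 23 had 2 of the 6 genes, 17 had 3, 22 had 4, 29 had 5 and 1 had 6. Just inside the threshold, the 23 nuclei with 2 genes had a median of 6 UMIs of 9330185C12Rik. Just outside it, 59 nuclei that met the rest of the rule with 1 gene had a median of 4 UMIs, and 79 with no gene a median of 1. When excitatory nuclei were clustered without the genes of the rule, 81 of the 92 fell into 1 cluster of 126 nuclei. This cluster took up 95.7% of the nuclei with 3 or more of the genes, 65.2% of those with 2, 16.9% of those with 1 and 2.53% of those with none. On average 73.3% of the 19 nearest neighbours of a selected nucleus were selected nuclei. Of the 45 other nuclei of the cluster, 33 had no UMI of 9330185C12Rik and 19 fewer than 2 of the 6 genes. Their median depth of 13578 UMIs was below the 16956 UMIs of the selected nuclei of the cluster.

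**Figure D1:**
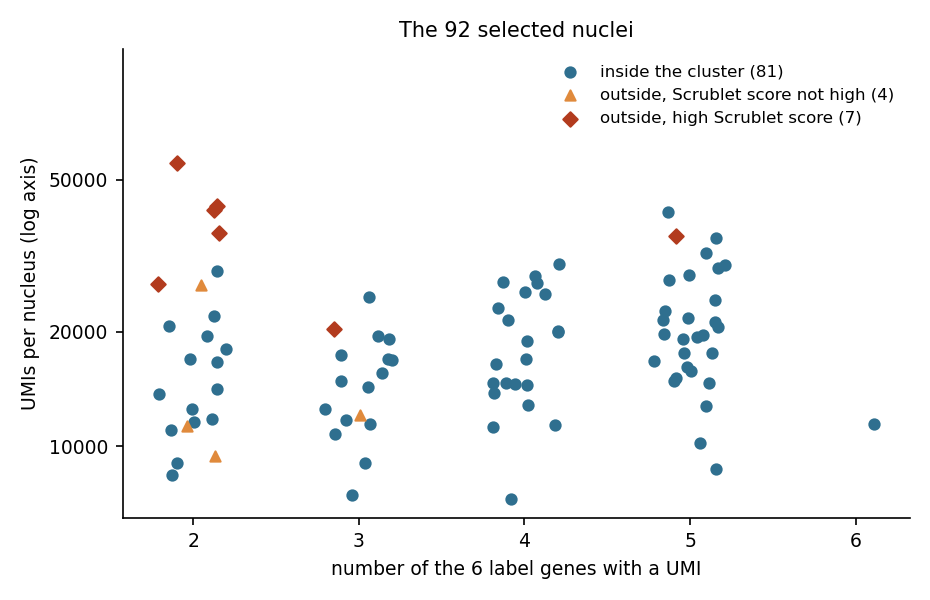
UMIs per nucleus (log axis) against the number of the 6 genes with a UMI for the 92 selected nuclei (1 point each, spread sideways at random). The 81 nuclei inside the cluster, the 4 outside it and the 7 outside it with a high Scrublet score have their own symbols, and 1 of the 7 has the most UMIs, 55240.

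The 11 selected nuclei outside the cluster had a median of 26659 UMIs, and 7 of them were among the nuclei with the highest Scrublet scores, a measure of likeness to simulated pairs of nuclei. None of the 81 nuclei inside the cluster had such a score. The 7 nuclei were 2 and 2 of the flox/flox and 3 and 0 of the Syn-Cre libraries. They made up 7.61% of the selected nuclei, against 9.72% high scores among the other excitatory nuclei. For the genes whose genotype effect differed between sets, values without nuclei of such scores are given in the closing section. Glis3, Ror1, Syt17 and Prox1 are the exceptions. Most UMIs of those genes came from nuclei of such scores.

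Genes outside the rule set the selected nuclei apart in each of the 4 libraries. With no further test, since nuclei so chosen must differ, 414 of 13461 genes with more than 3 UMIs in each set (3.08%) were at least 2-fold higher in pooled CPM than in other excitatory nuclei and higher in 4 of 4 libraries. For lower levels this number was 692 (5.14%). The 20 leading genes were ranked by the lowest of their ratios in the 4 libraries. Mybpc1, a myosin-binding protein, led them. It was at 77.8 and 93.3 CPM in the flox/flox and 68.2 and 93.8 CPM in the Syn-Cre libraries, and at 1.17 CPM or below in the other excitatory nuclei of each library. Its log2 ratio was 6.69 ± 0.60 (SD, n = 4 libraries), and its 147 UMIs came from 34 of the 92 nuclei. Insyn2b, a protein of inhibitory synapses, followed with 5.46 ± 0.46, and Plch1, a phospholipase C, with 5.01 ± 0.28. No library of the selected nuclei overlapped the other excitatory nuclei for any of the 3 genes.

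Several leading genes encode adhesion molecules and receptors. Ntng1, the membrane-anchored netrin-G that guides axons and synapses, was found in all 92 nuclei, at 2566 and 2843 CPM in the flox/flox and 2639 and 3499 CPM in the Syn-Cre libraries. In the other excitatory nuclei it was at 194 to 314 CPM, a log2 ratio of 3.57 ± 0.43. The cadherin Cdh20 was also found in all 92 nuclei, with a log2 ratio of 2.95 ± 0.14, and Cntnap3, of the contactin-associated family, had 3.27 ± 0.37. Rxfp1, the relaxin receptor, had 3.41 ± 0.24, and Ptger3, a prostaglandin E receptor, had 3.38 ± 0.58. Cemip, which binds and breaks down hyaluronan, had 2.96 ± 0.28. The GATA-type repressor Trps1 was found in all 92 nuclei with 3.20 ± 0.18, and the flippase Atp10a in 85 with 3.85 ± 0.32. Rerg, a Ras-like protein, had 3.57 ± 0.53, and Mctp2, a C2 domain protein, 3.42 ± 0.46. Plekhg1 had 3.14 ± 0.61. The noncoding RNA Gm49906 had 3.83 ± 0.31. Ccdc60, Fyb2, Gm41414, Gm31698 and Zfp804b were the other leading genes, with mean log2 ratios of 4.02, 2.84, 2.98, 3.35 and 2.63. Of the 25 leading and trailing genes, 7 overlap a gene on the other strand, among them Insyn2b, which overlaps Dock2. How strand was counted was not given in the sources used here.

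**Figure D2:**
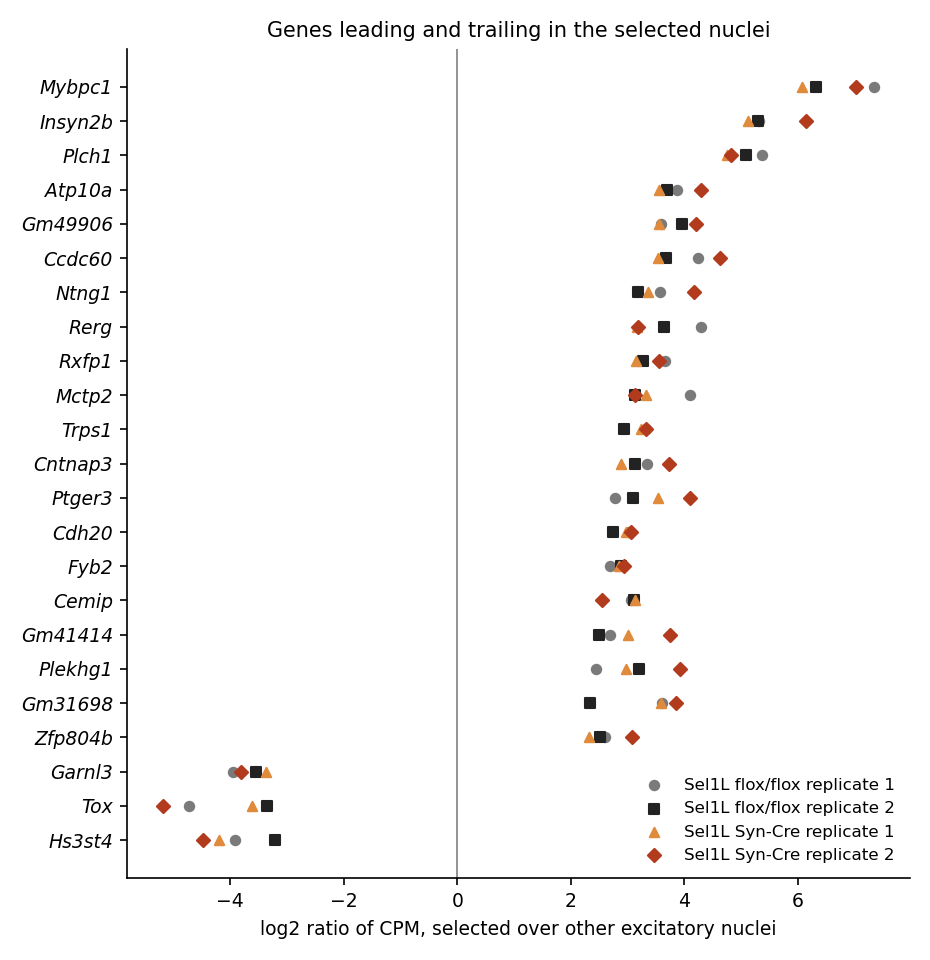
Log2 ratio of CPM in the selected over the other excitatory nuclei of the same library, for the 20 leading genes and 3 of the 5 trailing genes (1 point a library). Every point of the leading genes lies above 0 and every point of Garnl3, Tox and Hs3st4 below it. Rorb and Thsd7b are left out because each was at 0 in 1 library.

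The 5 trailing genes, among those at 100 CPM or more in the other excitatory nuclei of each library, were Rorb, Thsd7b, Garnl3, Tox and Hs3st4. Rorb, a transcription factor of layer 4, was at 0 and 8.88 CPM in the flox/flox and 11.4 and 5.52 CPM in the Syn-Cre libraries, against 119 to 194 CPM in the other excitatory nuclei. The heparan sulfate sulfotransferase Hs3st4 had a log2 ratio of -3.95 ± 0.54, Garnl3 one of -3.67 ± 0.26 and Tox one of -4.22 ± 0.88. The ranges of the selected and the other excitatory nuclei did not overlap for any of the 5 genes.

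Compared with each cluster rather than with all excitatory nuclei together, 15 of the 20 leading genes were highest in the cluster of the selected nuclei among 43 clusters. This count is a description, since the genes were chosen for high levels in nuclei that make up 81 of its 126. The margin varied among the 15 genes. Gm31698 had 78.0 CPM in this cluster and 76.5 CPM in the highest other one, and Gm41414 had 173 and 167 CPM. For Mybpc1 the highest of the other 42 clusters had 3.86 CPM. Trps1, Cntnap3, Fyb2, Plekhg1 and Zfp804b were higher elsewhere, with Zfp804b at 4747 CPM in the cluster led by Scml2, against 1948 CPM in the selected nuclei. Across 11733 genes centred on their mean over clusters, that cluster of 83 nuclei was also the most like the selected nuclei after their own, with a correlation of 0.33. It held no selected nucleus, shared Gm49906 (308 CPM) and Ntng1 (1184 CPM), and lacked Mybpc1 and Insyn2b (0 CPM). The next was a cluster of 279 nuclei led by C1qtnf7, Dach1, Hmcn1 and Fign, with a correlation of 0.23, which held 8 of the selected nuclei. It had 44.0 CPM of Dcn and 192 CPM of Reln, against 0.557 and 10.6 CPM in the selected nuclei. Genes and clusters share libraries and depth, so these correlations are a description.

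Regional and layer markers gave no single anatomical name. Across 20 lists with 95 distinct genes, 11 genes were at least 2-fold higher in the selected nuclei and higher in 4 of 4 libraries, 16 were lower by the same measure and 20 were at 0 UMIs. Of the 95 genes, 55 had more than 3 UMIs in both sets. Over all genes that met this floor, 3.08% were higher and 5.14% lower by the same measure. The higher genes were spread over 10 lists, with at most 2 in a list. Of the list for the subiculum, Fn1 (fibronectin) was 8.74-fold higher and Teddm3 and Dlk1 were at 0. Of the entorhinal list, Kitl, the ligand of the Kit receptor, was 4.73-fold higher and Reln lower. Of the list for layer 2/3 intratelencephalic (IT) neurons, Cux2 was 2.49-fold higher, Rasgrf2 was lower and Otof was at 0. Of the claustrum list, Nr4a2 was 4.57-fold higher and Car3 was at 0. Of the amygdala list, Rspo2 was 4.21-fold higher and Lmo3 lower. In the L5 IT list, the one list with 2 higher genes, Hsd11b1 was 6.72-fold and Deptor 2.15-fold higher, Etv1 was lower, and Batf3 and Endou were at 0.

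The 4 higher markers found in the most nuclei were Cux2 in 91, Kitl in 85, Man1a, a Golgi mannosidase, in 83 and Nr4a2 in 78 of 92. Kitl was at 243 and 169 CPM in the flox/flox and 175 and 259 CPM in the Syn-Cre libraries, against 34.7 to 49.9 CPM in the other excitatory nuclei. Cux2, a transcription factor of upper layers, was at 252 and 306 CPM and at 347 and 232 CPM, against 110 to 127 CPM. Nr4a2, a nuclear receptor, was at 137 and 160 CPM and at 115 and 232 CPM, against 17.8 to 58.8 CPM. For these 3 genes the selected nuclei lay above the other excitatory nuclei in every library without overlap. Among clusters, Kitl was highest in that of the selected nuclei and Cux2 was 5th.

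**Figure D3:**
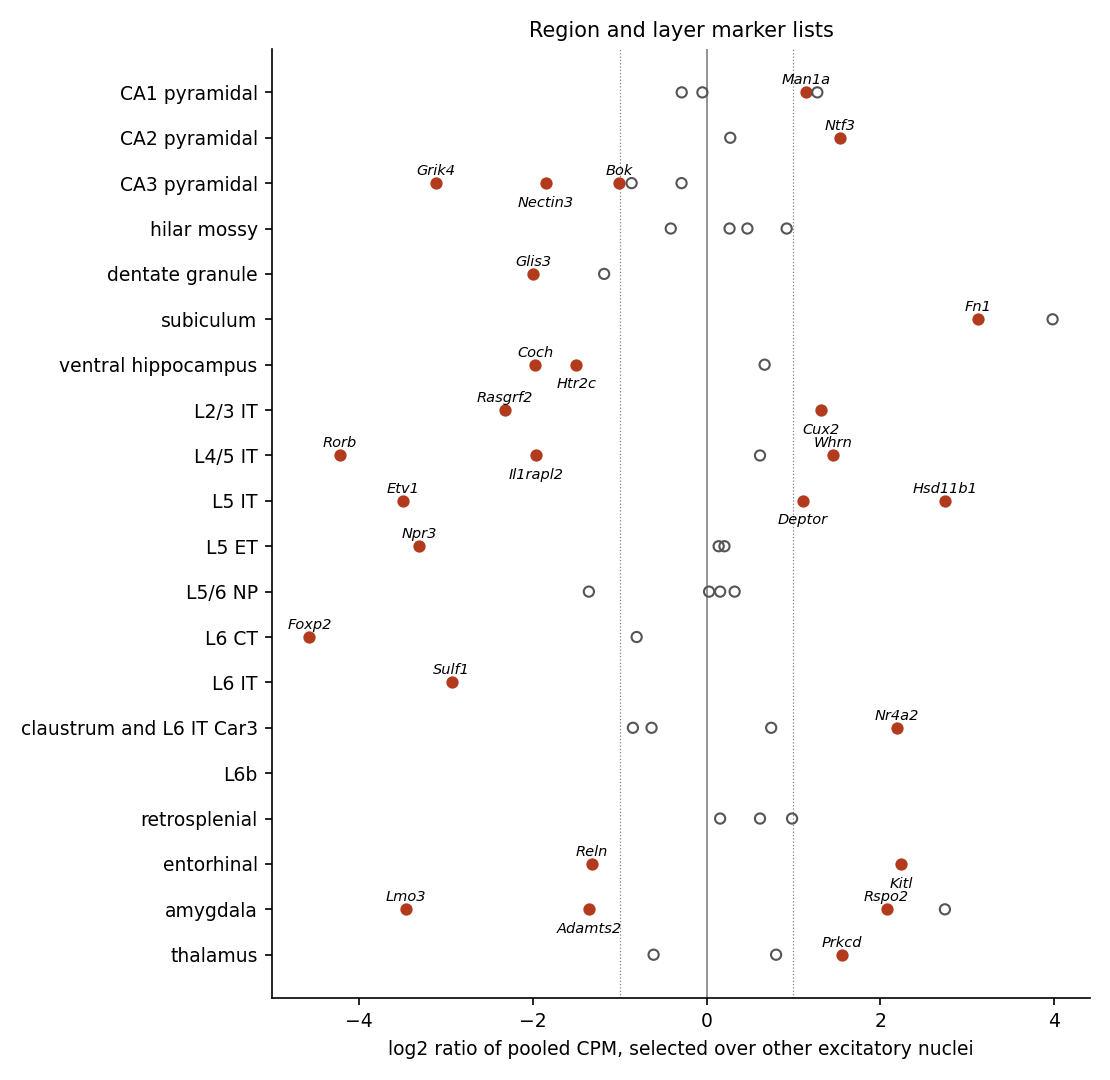
Log2 ratio of pooled CPM in the selected over the other excitatory nuclei for genes of 20 regional lists (rows) with more than 3 UMIs in both. Filled, named points are at least 2-fold apart (dotted lines) with the same direction in 4 of 4 libraries, and open points are not; 11 distinct genes are filled to the right and 16 to the left.

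Single genes of the hippocampus and of deep cortical layers lay on both sides. Man1a of the CA1 list was 2.21-fold and Ntf3 of the CA2 list 2.91-fold higher, while Amigo2 and Cacng5 of the CA2 list were at 0. Of the CA3 list, Bok, Grik4 and Nectin3 were at least 2-fold lower and no gene was higher. Zbtb20, a transcription factor of the hippocampus, was 4.47-fold lower, at 121 and 91.8 CPM in the flox/flox and 253 and 93.8 CPM in the Syn-Cre libraries, against 601 to 786 CPM. Foxp2, a factor of layer 6, was 23.8-fold lower, and Fezf2, of layer 5, had 1 UMI in all. The L6b genes Cplx3 and Nxph4, and Oprk1 and Osr1 of L6 IT neurons, were at 0. Of 15 regional transcription factors, 2 (Nr4a2 and Cux2) were at least 2-fold higher and 7 lower, against 3.08% and 5.14% of all genes compared.

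Glutamate receptor subunits differed in direction. Gria4, an AMPA receptor subunit, was at 2009 and 2628 CPM in the flox/flox and 1919 and 1760 CPM in the Syn-Cre libraries, against 615 to 874 CPM, a log2 ratio of 1.44 ± 0.14. Gria1, another AMPA receptor subunit, was at 49.8 and 105 CPM and at 243 and 99.3 CPM, against 1026 to 1248 CPM, a log2 ratio of -3.44 ± 1.01. Of its 255 UMIs, 156 came from the 11 nuclei outside the cluster. Gria3 was also more than 2-fold lower, whereas the NMDA receptor subunits Grin1, Grin2a and Grin2b stayed within 2-fold. Of 24 potassium channel genes, Kcnn3, a calcium-activated channel, was 3.24-fold higher and 5 were more than 2-fold lower (Kcnc2, Kcnh1, Kcnh5, Kcnj6 and Kcnt1). Of 10 immediate early genes, 5 were more than 2-fold lower (Fos, Junb, Arc, Nr4a3 and Btg2) and none higher. Over all genes compared, 3.08% were higher and 5.14% lower by this measure.

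Genes of the matrix and of the partners of Cd44 and Angpt1 did not move as groups. Of 19 genes of small proteoglycans, lecticans and hyaluronan synthases, 1 (Cspg5) was at least 2-fold higher, 2 were lower and 7 were at 0. Of 9 angiopoietin and kindlin partners none was 2-fold apart by this measure and 2 were at 0, and Tek, the Angpt1 receptor, was at 13.9 CPM against 25.1 CPM.

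Of the marker genes of other cell types, 1 was at least 2-fold higher by the rule above, the astrocyte water channel Aqp4. It was 8.63-fold higher, at 21.8, 16.3, 8.12 and 5.52 CPM in the 4 libraries, with 24 UMIs in 20 nuclei, all inside the cluster. Slc1a3, the astrocyte glutamate transporter, was 2.52-fold lower, at 5.57 CPM against 14.1 CPM. The summed astrocyte genes were at 342 to 498 CPM, against 323 to 375 CPM in the other excitatory nuclei, and their most abundant gene was Slc1a2, which neurons also hold, at 406 CPM against 325 CPM. Summed GABAergic genes, mainly Lamp5, were at 59.2 and 63.7 CPM in the flox/flox and 63.3 and 22.1 CPM in the Syn-Cre libraries. In 3 of 4 libraries this was above the 41.3 to 47.3 CPM of the other excitatory nuclei. The summed oligodendrocyte genes were at 947 and 75.5 CPM in the flox/flox and 81.2 and 49.7 CPM in the Syn-Cre libraries, against 131 to 331 CPM in the other excitatory nuclei. In flox/flox replicate 1, which alone was above that range, 1 nucleus with a high Scrublet score held 114 of all 205 Mbp UMIs and 40 of 45 Mobp UMIs. Summed microglial genes were at 49.7 to 82.9 CPM, against 67.4 to 79.6 CPM, and overlapped. With nuclei that held 2 or more UMIs of other cell types' genes left out, Slc1a2 and Slc1a3 not counted, the genotype comparison given further on made 0 calls among 4401 genes. Hspa5 then had a log2 fold change of 1.34 and Dnajc3 one of 1.31.

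The share of the selected nuclei among excitatory nuclei overlapped between the genotypes. It was 0.306% (16 of 5223, 95% Wilson interval 0.189% to 0.497%) and 1.15% (38 of 3317, 0.836% to 1.57%) in the libraries labelled Sel1L flox/flox. In those labelled Sel1L Syn-Cre it was 0.799% (26 of 3256, 0.546% to 1.17%) and 0.356% (12 of 3372, 0.204% to 0.621%). The intervals cover counting error only. Replicates of a group lay further apart than the group means of 0.726% ± 0.593 and 0.577% ± 0.313 (SD, n = 2). A two-sided exact permutation test gave p = 1, and its smallest possible p with 2 libraries a group is 0.3333. With nuclei thinned to 5000 UMIs and shallower ones left out, the shares were 0.0709%, 0.611%, 0.190% and 0.119%, again with overlap. With and without thinning, both Syn-Cre libraries lay below flox/flox replicate 2 and above flox/flox replicate 1, so the direction depends on which of the flox/flox libraries is left out. Without Syn-Cre replicate 2 and without thinning, the direction also turned, with the Syn-Cre share higher by 0.073 percentage points.

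**Figure D4:**
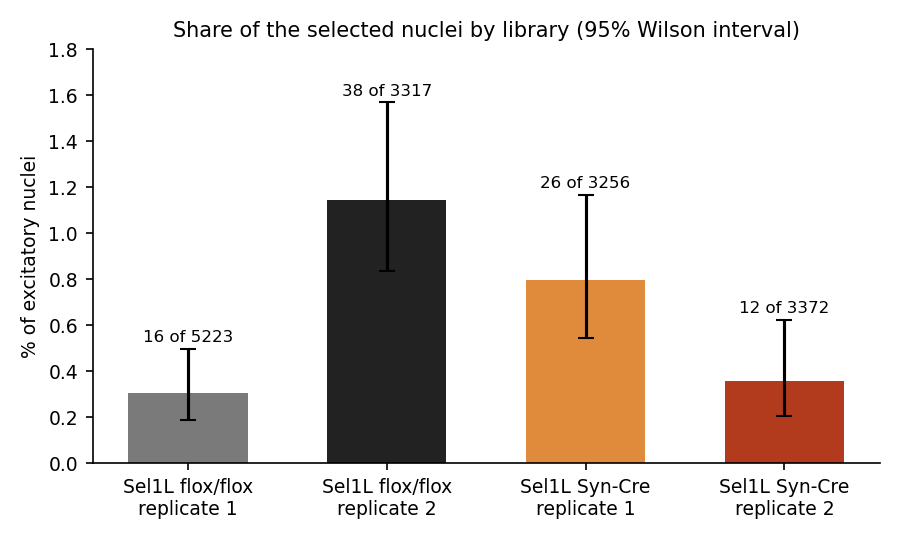
Selected nuclei as a percent of excitatory nuclei in each library (bars from 0, with 95% Wilson intervals and the numbers of nuclei above them). Flox/flox replicate 2 is highest at 1.15% and flox/flox replicate 1 lowest at 0.306%, so the genotypes overlap.

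Before genotypes were compared, Sel1l and the Cre feature (CRE) were read in each library. Sel1l stood at 97.1 and 90.1 CPM over all nuclei of the flox/flox libraries, and at 157 and 130 CPM in the Syn-Cre libraries. In the selected nuclei it was at 109 and 101 CPM and at 153 and 132 CPM. Reads of this 3′ assay may lie outside the deleted part, so Sel1l counts do not check the deletion. CRE had 490 UMIs in flox/flox replicate 1, 0 in flox/flox replicate 2 and 262 and 260 in the Syn-Cre libraries. Its presence in flox/flox replicate 1 goes against that label, so groups are named by their labels below, and counts of calls, named genes and stress gene lists are also given without that library. In the selected nuclei CRE had 2, 0, 4 and 0 UMIs.

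Genotypes were compared on UMI counts summed over the selected nuclei of each library. Of 6895 genes tested with edgeR's quasi-likelihood test, 0 (0%) passed an adjusted p of 0.05, and the smallest adjusted p was 0.537. At an unadjusted p under 0.05 there were 335 genes (4.86%), near the share that this limit gives with no effect at all. DESeq2 called 0 genes, with 38 under 0.05, and without flox/flox replicate 1, edgeR called 15 of 8777 genes. The median standard error of a log2 fold change was 0.36 in the selected nuclei and 0.15 in the other excitatory nuclei, where 24 of 19473 genes (0.123%) were called, and 662 of 20082 without flox/flox replicate 1. In the main comparison of all 4 libraries, nothing that follows on genotype in the selected nuclei passed the test across all genes. With all 4 libraries and no filter on low counts, edgeR called 19 of 17570 genes. Among these were Magt1, 1700016P03Rik, Gpc6, Gm47283, C130073E24Rik, Hmcn1 and Bmp3, named below. Each library is 1 mouse, so p-values rest on the spread between these mice, which edgeR estimates for a gene partly from the other genes.

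Among the genes with the smallest p, 2 ER chaperone genes had higher levels in both Syn-Cre libraries. Hspa5, which encodes the chaperone BiP, was at 18.7 and 22.2 CPM in the flox/flox and 66.5 and 60.7 CPM in the Syn-Cre libraries. Its log2 fold change was 1.58 (SE 0.38), with an edgeR adjusted p of 0.908. With each library left out in turn, flox/flox replicate 1 included, the log2 fold change was 1.44 to 1.75, and inside the cluster it was 1.42. Dnajc3, a BiP co-chaperone, was at 31.1 and 32.6 CPM against 77.9 and 82.8 CPM, with a log2 fold change of 1.27 (SE 0.32) and the same adjusted p, and 1.25 without flox/flox replicate 1. With libraries thinned to the smallest total, Hspa5 had 1.02 and Dnajc3 2.02, and with all nuclei of the cluster Dnajc3 had 0.78. The groups did not overlap for either gene. In the other excitatory nuclei Hspa5 rose, with a log2 fold change of 1.04 (SE 0.12, edgeR adjusted p = 0.0463). The difference of its effect between the sets was 0.47 (SE 0.43) and did not pass the test. Dnajc3 had 0.86 (SE 0.13) in the other excitatory nuclei, and its difference between the sets was 0.33 (SE 0.36).

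The other genes with the smallest p toward higher levels were Magt1, 1700016P03Rik, Gpc6, Gm47283, Efcab6, Hspa9, Ensa and 1110004F10Rik, with log2 fold changes of 1.02 to 2.97. Magt1, an oligosaccharyltransferase subunit of the ER, had 0 and 5 UMIs in the flox/flox and 29 and 5 in the Syn-Cre libraries. Its log2 fold change of 2.97 became 2.41 without flox/flox replicate 1, and 6.93 without flox/flox replicate 2, where the remaining flox/flox library is at 0 and the value is no bound. Hspa9, the mitochondrial chaperone mortalin, was at 31.1 and 31.1 CPM against 79.5 and 60.7 CPM. Gpc6, a glypican, overlapped between groups and rested on Syn-Cre replicate 1. Toward lower levels the 10 genes included 2 of the leading genes of the selected nuclei. Zfp804b was at 2666 and 2200 CPM in the flox/flox and 1402 and 1595 CPM in the Syn-Cre libraries. Its log2 fold change was -0.74 (SE 0.18, edgeR adjusted p = 0.908), and in the other excitatory nuclei -0.84 (SE 0.20). In the selected nuclei Rerg was at 349 and 238 CPM against 154 and 149 CPM, with -0.95, and it had -0.18 in the others. Satb1, a chromatin organiser, was at 215 and 227 CPM against 123 and 105 CPM, with -0.95. Bmp3, a growth factor, had 8 and 15 UMIs against 1 and 0. Qrfpr, a neuropeptide receptor, had -1.34, and Eml1, Pde4b and Dock2 had -1.10, -0.80 and -1.38. Without flox/flox replicate 1, log2 fold changes of the 10 genes toward higher levels were 0.99 to 2.41. Of those toward lower levels, Zfp804b, Satb1, Rerg and Pde4b then had -0.61, -0.99, -0.68 and -0.50, and C130073E24Rik, Qrfpr, Eml1 and Dock2 had -3.07, -1.503, -0.96 and -1.42. Bmp3 and Hmcn1 had at most 1 UMI in the Syn-Cre libraries, and no fold is given for them. Single libraries moved several values further. Without Syn-Cre replicate 1, Qrfpr had -2.20, Eml1 -1.71, C130073E24Rik -1.81 and 1700016P03Rik 2.60. Gm47283 had 1.79 and 0.66 without flox/flox replicates 1 and 2. It is annotated on chromosome Y, and the labels do not give the sex of the mice, so a link with sex was not tested. In the other excitatory nuclei Gm47283 had 1.11 (SE 0.35) and 1700016P03Rik 2.06 (SE 0.20). In the selected nuclei the 32 UMIs of Hmcn1 came from 2 nuclei, and 41 of the 63 UMIs of C130073E24Rik from 1 nucleus.

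The list of 16 ER chaperone and folding genes was higher in both Syn-Cre libraries as a sum. Its summed level was 383 and 329 CPM in the flox/flox and 609 and 701 CPM in the Syn-Cre libraries, and inside the cluster 379 and 334 against 532 and 701 CPM. In the other excitatory nuclei it was 390 and 383 CPM against 663 and 555 CPM. In both sets the groups did not overlap. Of all 16 genes, 8 were higher in both Syn-Cre libraries than in both others and 0 were lower in both. Of 17570 features with a UMI, 14.3% were higher in both and 13% lower in both. With flox/flox replicate 1 left out, 10 of the 16 lay above the remaining flox/flox library in both Syn-Cre libraries and 0 below, where 24% and 30.2% of all features did. With no filter on low counts, the median log2 fold change was 0.94 over the list and -0.02 over all features. Besides Hspa5 and Dnajc3, the 8 genes were Hsp90b1, Pdia3, Pdia6, Manf, Calr and P4hb, and none was called. Manf, a secreted ER stress factor, was at 52.9 and 59.2 CPM against 86.0 and 132 CPM. Earlier results of these data had already shown ER chaperones to be higher in neurons of the Syn-Cre libraries, so these counts are no independent support.

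**Figure D5:**
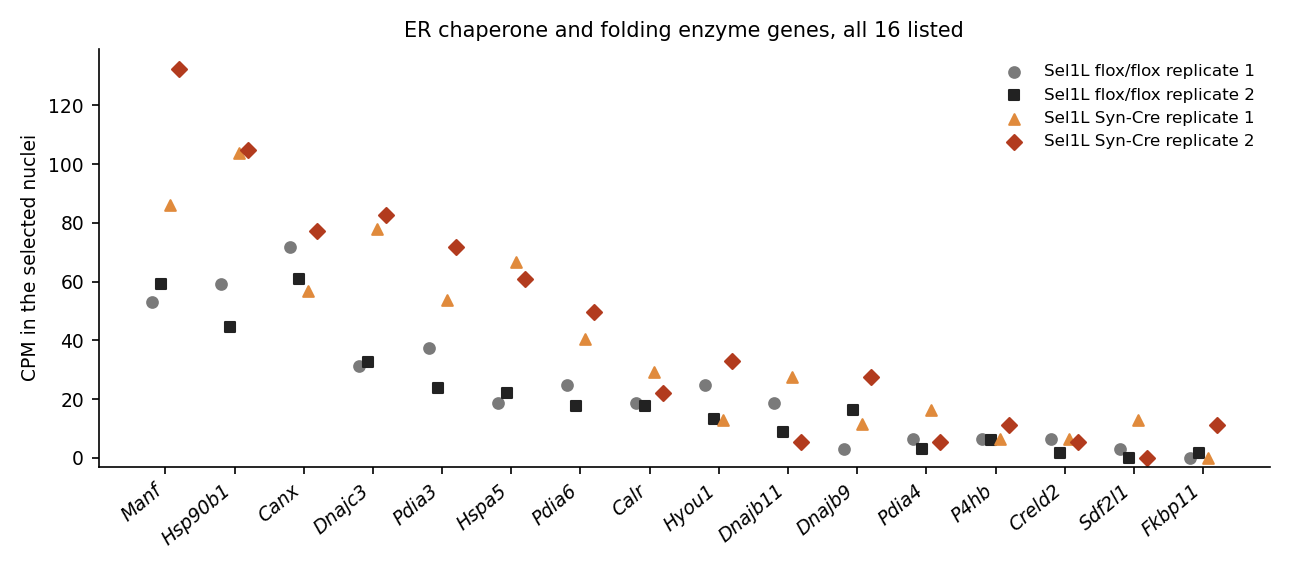
CPM in the selected nuclei of each library for all 16 listed ER chaperone and folding genes (1 point a library, ordered by mean CPM). Both Syn-Cre points lie above both flox/flox points for 8 genes, and the groups overlap for the other 8.

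The other stress lists are also given over all listed genes, and 0 genes of any were called in the main comparison. For comparison, 14.3% of all features with a UMI were higher and 13% lower in both Syn-Cre libraries. Without flox/flox replicate 1, 24% of all features lay above and 30.2% below. Of 19 ERAD genes, 10 were higher and 4 lower in both Syn-Cre libraries, and the same numbers lay above and below without flox/flox replicate 1. Herpud1, an ERAD scaffold, was at 15.6 and 10.4 CPM against 25.97 and 22.1 CPM, and Syvn1, which encodes HRD1, at 15.6 and 16.3 CPM against 8.12 and 5.52 CPM. Of 10 UPR genes, Ern1, Atf6, Xbp1 and Ddit3 were higher in both, and Eif2ak3 and Creb3 lower in both. Without flox/flox replicate 1 there were 4 above and 4 below. Of 18 ATF4 targets, 9 were higher and 0 lower in both, and 10 above and 1 below without flox/flox replicate 1. Gars, a glycyl-tRNA synthetase, was at 43.6 and 41.5 CPM against 90.9 and 82.8 CPM. Summed over all listed genes, ATF4 targets were at 330 and 459 CPM in the flox/flox and 661 and 679 CPM in the Syn-Cre libraries, without overlap. Of 16 serine and one-carbon genes, Psph, Mthfd2 and Aldh1l2 were higher in both, and Shmt1 and G6pdx lower in both. Mthfd2, a mitochondrial folate enzyme, was at 12.5 and 11.8 CPM against 40.6 and 22.1 CPM. Without flox/flox replicate 1 the counts of this list were 5 above and 4 below. Of 24 potassium channel genes, 5 were higher and 4 lower in both, and 7 above and 7 below without flox/flox replicate 1. The potassium channel counts and the serine and one-carbon counts lie near the shares of all features.

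The genotype effect was then compared between the selected and the other excitatory nuclei, within libraries. Of 18124 genes, 14 (0.0772%) passed edgeR's test, 12 with a more positive effect in the selected nuclei. With the 7 nuclei of high Scrublet score and all other such nuclei left out, 0 of 17695 genes passed (560 at an unadjusted p under 0.05). DESeq2 called 0 of 22757 (184). Inside the cluster alone 0 passed (611), and without Syn-Cre replicate 1, 0 passed (641). Without flox/flox replicate 1, 7 passed. Trpm3, a cation channel, had the smallest adjusted p (2.35e-07), with a difference of 1.98 (SE 0.29). It was 0.19 with the nuclei of high Scrublet score left out, 0.72 without Syn-Cre replicate 1, 1.20 without flox/flox replicate 2 and 2.72 without flox/flox replicate 1. Its 33 and 24 UMIs in the flox/flox and 137 and 12 in the Syn-Cre libraries overlapped between groups. One nucleus of Syn-Cre replicate 1 held 106 of them.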

How the data were processed

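The authors sorted propidium iodide-stained nuclei, made 10x Genomics 3′ v3 libraries and ran Cell Ranger 6.1.0 on GRCm38, per the submitters' processing notes and the file headers. They deposited raw UMI counts of 32286 features for 36619 barcodes, 122870443, 76617523, 75227337 and 74082610 UMIs in flox/flox replicates 1 and 2 and Syn-Cre replicates 1 and 2. Whether introns were counted is not given in the sources used here.

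Here, 237, 45, 101 and 132 nuclei were dropped for holding no more than 600 genes, and 0, 0, 7 and 3 of the rest for a mitochondrial share of 5% or above. The members, the rule and the gene lists were chosen with earlier results of these data known. Doublets were scored with Scrublet's method and kept in the main results. Excitatory nuclei were clustered in scanpy 1.11.5 (2000 genes without those of the rule, 30 components, 20 neighbours, Leiden resolution 1.5). UMIs summed per library were tested in edgeR 4.0.16 (TMM, filterByExpr, quasi-likelihood, two-sided, Benjamini-Hochberg), with library as a block for the difference between sets. Standard errors are the log2 fold change over the square root of its F statistic. DESeq2 1.42.0 was an alternative. CPM were scaled by summed UMIs, with no pseudocount. Alternatives were other scaling, filters, thinning, doublets, a stricter rule, the cluster and each library left out.

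Genes were named by a rule. For identity, the 20 highest and 5 lowest ratios in the least favourable library were taken, with at least 10 UMIs in each library for the highest and 100 CPM in the other excitatory nuclei for the lowest. For genotype, the 10 smallest p-values in each direction were taken among genes with at least 20 UMIs. Members of the lists may be named with the list's count. Gene positions are from GENCODE vM21 (GRCm38), in which 32235 features were found.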

Additional observations from a re-analysis of the deposited data

Results flagged for a closer look

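In 14 genes the effect of genotype differed between the selected and the other excitatory nuclei by edgeR's interaction test (adjusted p from 2.35e-07 to 0.0471). None of them passed it with doublets left out, where Gpc6, Arhgap6, Dpyd and Adamtsl1 had differences of 1.44, 1.40, 1.33 and 1.23 on the log2 scale. Trpm3, Adarb2, Maml2, 4930509J09Rik and Mbp then had 0.19, 0.14, 0.77, 0.54 and -0.20, and Mobp -1.13. All 18 Prox1 UMIs came from nuclei of high Scrublet score, so no value without them is given for Prox1. The more positive differences in the selected nuclei, on the log2 scale, were 1.98 for Trpm3, 2.68 for Maml2, 5.14 for Glis3, 1.84 for Gpc6, 1.54 for Arhgap6, 1.57 for Adarb2, 3.98 for Prox1, 1.74 for Dpyd, 1.46 for 4930509J09Rik and 2.52 for Adamtsl1. Ror1 and Syt17 were at 0 UMIs in the selected nuclei of both flox/flox libraries and had 17 and 11 UMIs in those of Syn-Cre replicate 1 and 0 in replicate 2. Glis3 and Prox1 had 1 and 2 UMIs in the flox/flox libraries together, so their fitted values rest on few counts. The more negative differences were -4.53 for Mobp, which had 1 UMI in the Syn-Cre libraries, and -1.20 for Mbp.

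Nuclei with a high Scrublet score held 125 of 206 Trpm3 UMIs, 55 of 73 Maml2 UMIs, 21 of 26 Glis3 UMIs and 17 of 17 Ror1 UMIs. They also held 18 of 18 Prox1 UMIs, 8 of 11 Syt17 UMIs, 41 of 45 Mobp UMIs and 125 of 205 Mbp UMIs. For Gpc6 and Arhgap6 they held 52 of 159 and 21 of 173 UMIs, and inside the cluster the differences of these genes were 1.48 and 1.43 without passing the test (adjusted p = 0.137 and 0.0823). Dpyd had 2.57 there (adjusted p = 0.0810). Flox/flox replicates 1 and 2 and Syn-Cre replicates 1 and 2 had 12, 61, 73 and 27 Arhgap6 UMIs in the selected nuclei. Without flox/flox replicate 1 the differences of Gpc6, Arhgap6, Dpyd, Adarb2 and Adamtsl1 were 1.47, 1.42, 1.39, 1.81 and 2.21. The difference of Adamtsl1 was 3.49 without flox/flox replicate 2, and that of Arhgap6 was 2.28 with the other excitatory nuclei thinned.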

How the results depend on the processing

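In the selected nuclei edgeR called 0 genes in the main comparison and 19 with no filter on low counts; leaving out 1 library gave 15 to 32 calls (15 and 20 without flox/flox replicates 1 and 2, 30 and 32 without Syn-Cre replicates 1 and 2), with the lone library of a group assumed to vary like the others, and the cause was not tested. In the other excitatory nuclei the 24 calls became 627 with no filter, 369 with DESeq2, 5 at the depth of the selected nuclei and 31 to 1103 with 1 library left out. The replicate numbers did not pair the samples (correlation of deviations 0.00685 in the selected and 0.0608 in the other excitatory nuclei). A replicate block gave 0 calls in the selected nuclei and 469 in the others. The 14 genes of the difference test became 0 with DESeq2, 0 with doublets left out, 0 inside the cluster, 0 with all nuclei of the cluster (the last 2 chosen after seeing the data), 5 with the other nuclei thinned and 0 to 28 with 1 library left out (7, 18, 0 and 28 in the same order).

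The difference in share (Syn-Cre minus flox/flox, -0.149 percentage points) was -0.568 without flox/flox replicate 1 and 0.271 without flox/flox replicate 2, the ends of its range with 1 library left out. With 1 library left out Gpc6 ranged from -0.096 to 2.51 as a log2 fold change in the selected nuclei and from -0.20 to 2.49 as a difference. The differences ranged from 0.72 to 2.72 for Trpm3, 0.59 to 3.26 for Dpyd, -12.36 to -2.04 for Mobp, -1.26 to 3.88 for Maml2, -7.33 to 13.07 for Glis3, -2.08 to 2.05 for Adarb2, -7.99 to 4.44 for Prox1, -1.49 to 2.13 for 4930509J09Rik and -2.00 to 0.085 for Mbp, and values beyond 6 come from genes with few or no UMIs in a group and are no bound. With all nuclei of the cluster, Gpc6 had -0.36 as a fold change and -0.45 as a difference, and the differences were -0.63 for Trpm3, -1.14 for Ror1, -0.44 for 4930509J09Rik and 0.20 for Mbp, which had 0.45 with selected nuclei inside the cluster only. Of the 20 leading genes, 18 were among the leading 20 with doublets left out and 18 with all nuclei of the cluster. Leaving out nuclei with UMIs of other cell types was not run as planned, since it left 0 nuclei in 1 library. With Slc1a2 and Slc1a3 not counted, a version chosen after seeing the data, it gave 0 calls, and named genes kept their direction (Hspa9 0.77, Ensa 1.46), with Magt1, Hmcn1, Bmp3 and Dock2 not tested. The selected nuclei numbered 12 to 38 a library: 6895 genes passed the filter in the selected and 19473 in the other excitatory nuclei.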
